A study of Mus musculus with 2 samples.

Results

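Genes of the inflammasome and of the gasdermin pores were followed in single cells of the mouse gut lining, 10 genes out of the 55357 in the count tables. They were listed by symbol: the gasdermin genes Gsdmc2, Gsdmc3, Gsdmc4 and Gsdmd, the sensor genes Nlrp6, Nlrp9b and Naip5, the adaptor gene Pycard, the protease gene Casp1 and the cytokine gene Il18. No cut-off on a measured value was used, but the list was made with earlier results of these data known. All 10 had unique molecular identifiers (UMIs, each standing for 1 captured RNA molecule) in both libraries. One library came from adip fl/fl mice, whose adiponectin gene is floxed, and the other from adip fl/fl-Villi-Cre littermates, which carry the same floxed alleles and Cre under the villin promoter, active in the intestinal epithelium. The tissue was small intestine of 8-week-old males, enriched for crypts per the paper and pooled before capture. A supplementary legend of the paper names the clusters as ileum. The main figure legend gives 6 mice, without saying whether per genotype. With 1 library per genotype no difference between the libraries has a replicate check and none was tested. The values in parentheses are exact 95% intervals that cover counting error only, and in each pair of values adip fl/fl comes first and adip fl/fl-Villi-Cre second. Adipoq, the targeted gene, had 1 and 0 UMIs over all barcodes, so the deletion could not be checked in these counts.

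An inflammasome is a protein platform that a sensor of microbial products or damage builds, often through the adaptor ASC, which Pycard encodes, and on which caspase-1 is activated. Caspase-1 matures the cytokines IL-1beta and IL-18 and cuts gasdermin D, whose freed part opens pores in the plasma membrane. In the gut epithelium the NAIP proteins sense flagellin and parts of bacterial secretion systems, NLRP6 and NLRP9b are sensors studied for defence of the mucosa, and the gasdermin C genes are known to respond to type 2 cytokines.

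Removing barcodes with at most 500 genes, or with a mitochondrial share of at least 25%, left 3069 and 5555 barcodes (25687687 and 48895126 UMIs, with medians of 4838 and 4749 per cell), and 3 barcode sequences occurred in both libraries. Clusters were formed without the 10 genes and 60 other genes of the same pathways, and were named from marker lists. Enterocytes formed villus bottom-like (222 and 447 cells), mid-villus-like (894 and 1458) and villus tip-like (494 and 1494) classes and a cluster with 5 mid-villus and 5 tip markers, here called mid-to-tip (386 and 572). Crypt cells (82 and 215) carried stem cell and cycling markers. Depth and mitochondrial share moved with these classes: the median was 21668 and 20436 UMIs in villus bottom-like and 3869 and 3590 in villus tip-like cells, and the median mitochondrial share was 6.6% and 5.86% against 20% and 20.2%. Levels are given as UMIs of a gene per 1000000 UMIs of the class (CPM). A level is thus a share, and a higher CPM in a class of low depth need not mean more UMIs per cell. UMIs of a gene per cell were not compared between classes. Mid-to-tip cells had the lowest median depth of these classes, 3028.5 and 2963.5 UMIs, and the highest median mitochondrial share, 22.2% and 22%. The mid-to-tip and tip cells thus lie close to the 25% limit. Bottom to tip ratios under a stricter limit of 10% are given beside the results and at the end. That limit left 8 and 2 mid-to-tip cells, so peaks in this class were not checked under it.

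Gsdmc2 (ENSMUSG00000056293), Gsdmc3 (ENSMUSG00000055827) and Gsdmc4 (ENSMUSG00000055748) lie side by side on the minus strand of chromosome 15 (GRCm38/mm10), at chr15:63824346-63845177, chr15:63857724-63878558 and chr15:63891264-63912297. They are close copies. Within the last 500 bases of their transcripts, aligned bases were 96.5% identical between Gsdmc2 and Gsdmc3, 95.5% between Gsdmc2 and Gsdmc4 and 94.6% between Gsdmc3 and Gsdmc4. Of 401 windows of 100 bases in that stretch, 56 of Gsdmc2 and 57 of Gsdmc3 occurred unchanged in another gene of the family, so the split of reads between them is uncertain. None of the windows of Gsdmc4 or of the other 7 genes occurred elsewhere. Gsdmd (ENSMUSG00000022575) lies at chr15:75862327-75867408 on the plus strand. On chromosome 7 are Nlrp6 (ENSMUSG00000038745, chr7:140920902-140929192, plus strand), Nlrp9b (ENSMUSG00000060508, chr7:19991465-20073306, plus strand) and Pycard (ENSMUSG00000030793, chr7:127989708-127993867, minus strand). Casp1 (ENSMUSG00000025888, chr9:5298517-5307265) and Il18 (ENSMUSG00000039217, chr9:50554827-50581840) are on the plus strand of chromosome 9, and Naip5 (ENSMUSG00000071203) is at chr13:100211739-100246323 on the minus strand. Il18 overlaps Bco2 and Tex12 of the opposite strand, Pycard overlaps the unclassified transcript Gm45205 of the opposite strand, and Nlrp9b overlaps a pseudogene, Gm18877, of its own strand.

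Promoter sequence was at hand for 7 of the 10 genes (RefSeq, GRCm38.p6). The 250 bases before the start are shown for 4 genes that peaked in different places, Gsdmc3 in the crypt, Nlrp6 and Il18 in the lower villus and Nlrp9b in the upper villus. Capitals mark matches to the motifs searched, on either strand.
Gsdmc3 (chr15:63878559-63878808, minus strand): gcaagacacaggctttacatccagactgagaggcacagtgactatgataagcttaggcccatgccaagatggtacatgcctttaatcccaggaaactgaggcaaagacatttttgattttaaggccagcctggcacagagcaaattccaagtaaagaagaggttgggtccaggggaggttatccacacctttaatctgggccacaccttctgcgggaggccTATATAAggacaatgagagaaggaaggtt
Nlrp6 (chr7:140920652-140920901, plus strand): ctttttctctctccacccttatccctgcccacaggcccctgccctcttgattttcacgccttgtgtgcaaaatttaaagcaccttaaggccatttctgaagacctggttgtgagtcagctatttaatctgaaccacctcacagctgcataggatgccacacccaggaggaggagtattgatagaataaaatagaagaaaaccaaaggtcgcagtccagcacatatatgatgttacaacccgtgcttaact
Il18 (chr9:50554450-50554699, plus strand): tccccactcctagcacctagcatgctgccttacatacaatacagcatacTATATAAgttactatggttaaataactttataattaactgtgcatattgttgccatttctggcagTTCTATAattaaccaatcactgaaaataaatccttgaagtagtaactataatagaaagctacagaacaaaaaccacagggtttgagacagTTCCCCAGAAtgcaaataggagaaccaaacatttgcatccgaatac
Nlrp9b (chr7:20007773-20008022, plus strand): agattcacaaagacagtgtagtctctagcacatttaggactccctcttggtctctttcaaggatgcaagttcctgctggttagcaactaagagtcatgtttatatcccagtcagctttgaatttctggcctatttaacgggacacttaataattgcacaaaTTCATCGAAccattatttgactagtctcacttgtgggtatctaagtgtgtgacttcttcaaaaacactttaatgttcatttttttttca
The Il18 window held the STAT6-type motif TTCNNNNGAA, found in 5.86% of 27025 promoter windows of the same length, 46 bases before the start. Starts here are those of RefSeq. For Nlrp9b the RefSeq start lies inside the GENCODE gene given above, downstream of its first base, and for Il18 it lies upstream of it. The Nlrp9b window held the related STAT-type motif TTCNNNGAA (7.18% of all windows) 89 bases before the start. The TATA-type motif TATANAA (10.9% of all windows), which was added after the sequences had been read, stood 29 bases before the start of Gsdmc3 and in 2 places of the Il18 window. The IRF-type motif GAAANNGAAA (3.04%), the HNF4-type motif CAAAGTCCA (0.381%), the CDX-type motif TTTATNG (10.2%) and the NF-kB-type motif GGGNNTTTCC (1.4%) were in 0 of the 7 windows.

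Along the villus the 10 genes fell on both sides, in the same way in both libraries. The gasdermin C genes, Pycard, Nlrp6, Casp1 and Il18, 7 of the 10, were at least 2-fold higher in villus bottom-like than in villus tip-like cells in both libraries, as were 52% of 9908 genes with at least 20 UMIs. Gsdmd and Nlrp9b, 2 of the 10, were at least 2-fold higher in villus tip-like cells, as were 9.39% of those genes, and Naip5 met neither limit, with a bottom to tip ratio of 0.628 (0.549 to 0.72) and 0.54 (0.494 to 0.59). That of Naip5 depended on the clustering, and was 0.296 and 0.376 with 30 principal components, past the 2-fold limit. A mitochondrial share held under 10% left 4 and 17 villus tip-like cells with 29282 and 129914 UMIs. The bottom to tip ratio of Gsdmc4 was then 1.03 and 3.8 in place of 70.1 and 171. That of Il18 was 2.48 and 11.6 in place of 24 and 37.3. Under this limit a gene with 0 UMIs in the tip cells was set to a floor of 3 UMIs. These ratios can thus be lower bounds, and a low value does not show a smaller difference. The median log2 ratio of bottom to tip was 4.56 and 4.71 over the 10 genes and 1.29 and 1.25 over all genes tested. As the 10 genes were listed with earlier results known, this contrast only describes them. From the crypt to the villus bottom, 5 genes (Gsdmd, Nlrp6, Nlrp9b, Naip5 and Il18) were at least 2-fold higher in villus bottom-like cells (9.59% of all genes) and Gsdmc3 was at least 2-fold higher in the crypt (19.1%). From the bottom to the mid-to-tip cells, Gsdmd, Nlrp9b and Naip5 were at least 2-fold higher in mid-to-tip cells (8.46% of all genes) and the other 7 were at least 2-fold lower (33.4%).

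The gasdermin C genes encode pore-forming proteins and were highest in the crypt and the lowest villus. Gsdmc4 stood at 138 CPM (123 to 154) and 126 CPM (117 to 136) in crypt cells and at 100.0 CPM (91.7 to 109) and 86 CPM (80.8 to 91.6) in villus bottom-like cells. In mid-villus-like cells 6 and 5 UMIs were left, 0.765 CPM and 0.343 CPM, and the ratio of villus bottom-like to mid-villus-like cells was 131 (59.7 to 358) and 251 (107 to 774). The step thus lay between the first class of the villus and the next. Gsdmc2 stood at 81.5 CPM (70.3 to 94) and 72.5 CPM (65.6 to 80) in crypt cells, 48.1 CPM (42.4 to 54.3) and 37 CPM (33.5 to 40.7) in villus bottom-like cells and 0 CPM and 0.755 CPM in mid-villus-like cells. Gsdmc3 stood at 31.9 CPM (25.1 to 40.1) and 28 CPM (23.7 to 32.8) in crypt cells and 13.4 CPM (10.5 to 16.9) and 9.27 CPM (7.59 to 11.2) in villus bottom-like cells, and had 0 UMIs in villus tip-like cells of both libraries. With that 0 set to a floor of 3 UMIs per library, villus bottom-like cells were at least 9.42-fold and at least 18.4-fold higher for Gsdmc3. The bottom to tip ratio of Gsdmc4 was 70.1 (23.9 to 341) and 171 (58.4 to 831), and 0.747% and 0.0303% of all genes had a ratio as high. In this and the later shares of all genes, a gene with 0 UMIs in a group was ranked by its bound at the floor of 3 UMIs. More genes may thus have a ratio as far from 1. Gsdmc2 had 1 and 2 UMIs in villus tip-like cells and a ratio of 101 (18 to 4008) and 110.3 (30.4 to 914). The fourth gene of the cluster, Gsdmc, had 0 and 0 UMIs in enterocytes.

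Inside the crypt and the villus bottom the gasdermin C genes were uneven again. The crypt cluster divided into sub-clusters led by the cell cycle genes Cdc20 and Ccnb1 (43 and 103 cells), by the stem cell gene Olfm4 (28 and 86, with 5 fibroblast markers) and by Kcne3 (11 and 26). The Cdc20 sub-cluster had 10 cycling and 2 stem cell markers, and the Olfm4 sub-cluster 12 cycling and 10 stem cell markers. The 2 names thus do not part cycling from non-cycling cells. Gsdmc4 was at 204 CPM (180.3 to 229) and 204 CPM (187 to 222) in the Cdc20 sub-cluster and at 15.1 CPM (6.06 to 31.1) and 18.2 CPM (12.4 to 25.7) in the Olfm4 sub-cluster, and Gsdmc2 at 121 CPM and 122 CPM against 2.15 CPM and 10.2 CPM. Both gasdermin genes were thus higher in the Cdc20 than in the Olfm4 sub-cluster in both libraries. In the villus bottom-like cluster a sub-cluster led by Akr1c19, Car4 and Rbp7 beside the gasdermin genes (65 and 113 cells) had Gsdmc4 at 255 CPM (232 to 279) and 205 CPM (189.8 to 221). The other sub-clusters had 10.7 CPM and 16.1 CPM, 35.5 CPM and 61 CPM, and 28.6 CPM and 35.7 CPM. In villus bottom-like cells thinned to 2000 UMIs, Gsdmc4 was found in 9 of 22 (40.9%) of those with Gsdmc2 and in 22 of 199 (11.1%) of those without it in the adip fl/fl library. In the adip fl/fl-Villi-Cre library the counts were 8 of 29 (27.6%) and 57 of 415 (13.7%).

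**Figure D1:**
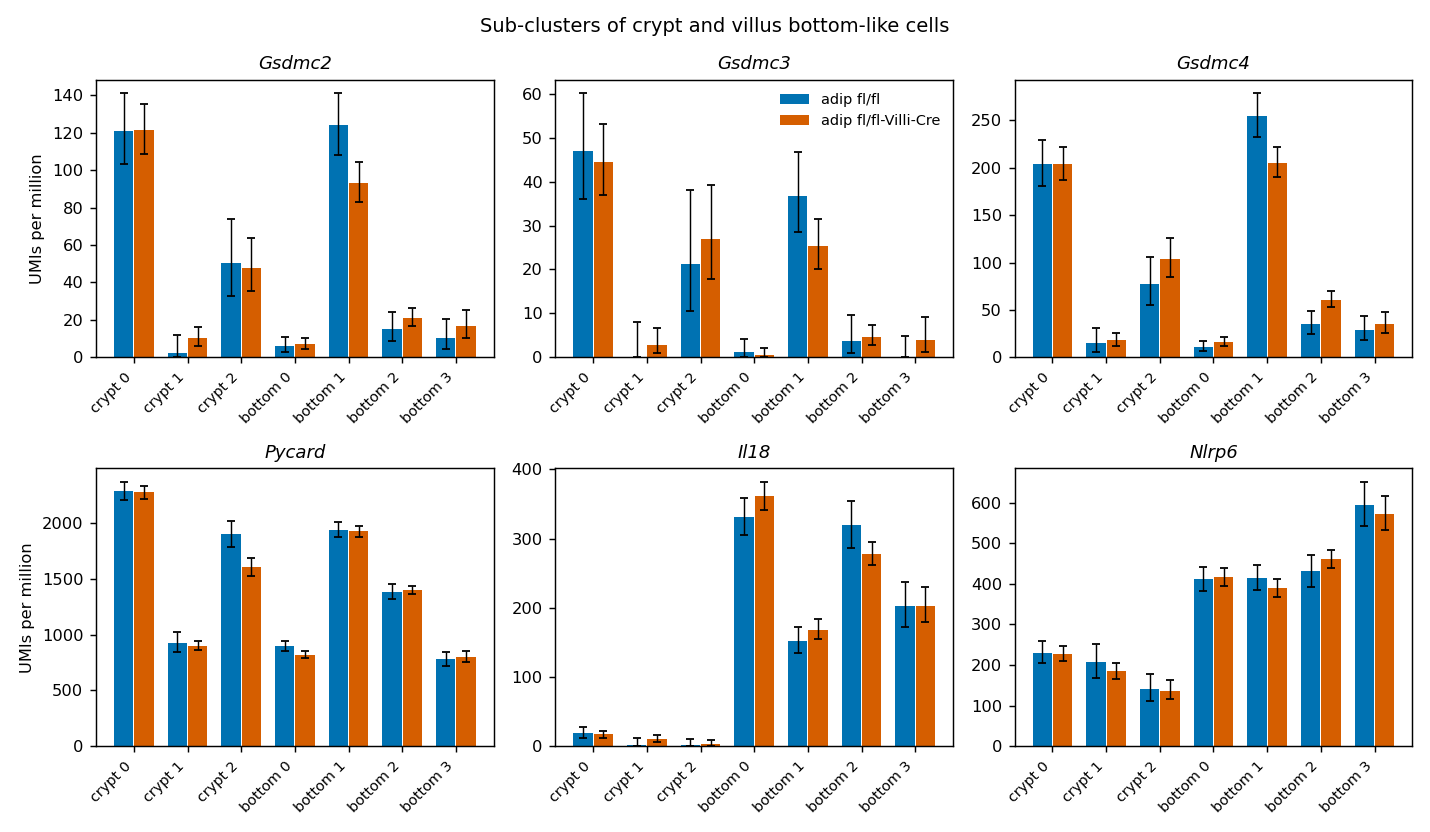
Bars show CPM in the sub-clusters of the crypt cluster (crypt 0 led by Cdc20, crypt 1 by Olfm4, crypt 2 by Kcne3) and of the villus bottom-like cluster (bottom 0 to bottom 3), blue for adip fl/fl and orange for adip fl/fl-Villi-Cre, with exact 95% Poisson intervals. Gsdmc4 is highest in bottom 1 (255 CPM and 205 CPM) and crypt 0, Il18 is lower in bottom 1 than in the other bottom sub-clusters, and Nlrp6 is highest in bottom 3 (595 CPM and 573 CPM).

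Il18, whose product caspase-1 matures, was lower inside the villus bottom-like cluster where Gsdmc2 and Gsdmc4 were high. It stood at 152 CPM (135 to 172) and 168 CPM (155 to 183) in the sub-cluster rich in Gsdmc4 and at 331 CPM (305 to 359) and 361 CPM (341 to 382) in the sub-cluster led by Gsta1 and Reg3a, which had the least Gsdmc4. These sub-clusters also differed in position. The median log2 score of tip over bottom markers, over both libraries, was -3.59 and -2.52 in the same order, and -3.7 in crypt cells. The part of position in this contrast was not tested. In thinned villus bottom-like cells Il18 was found in 6 of 31 (19.4%) of those with Gsdmc4 and 68 of 190 (35.8%) of those without it in the adip fl/fl library, and in 15 of 65 (23.1%) and 136 of 379 (35.9%) in the adip fl/fl-Villi-Cre library. For Gsdmc3, found in few cells, the shares lay the other way, at 2 of 4 (50%) against 72 of 217 (33.2%) and 5 of 9 (55.6%) against 146 of 435 (33.6%). Along the axis Il18 was at 11.6 CPM (7.67 to 16.9) and 12.2 CPM (9.44 to 15.5) in crypt cells and 21.5 (14.7 to 32.8) and 21.6 (16.9 to 27.9) times that level in villus bottom-like cells, at 251 CPM (238 to 264) and 263 CPM (253 to 272). It was at 185 CPM (176 to 195) and 203 CPM (195 to 210.0) in mid-villus-like cells, 9.3 CPM (4.64 to 16.6) and 11.4 CPM (6.95 to 17.6) in mid-to-tip cells and 10.5 CPM (6.55 to 15.8) and 7.04 CPM (5.07 to 9.52) in villus tip-like cells. Il18 was thus high in the lower and middle villus and low at both ends, and the mid-to-tip and tip levels did not differ beyond counting error, with ratios of 0.889 (0.389 to 1.91) and 1.62 (0.899 to 2.81).

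Pycard had one of the steepest gradients of these genes. It stood at 1932 CPM (1876 to 1989) and 1715 CPM (1681 to 1750.3) in crypt cells and 1327 CPM (1297 to 1358) and 1316 CPM (1295 to 1337) in villus bottom-like cells. It was at 202 CPM (192 to 212) and 229 CPM (221 to 237) in mid-villus-like cells, 24.5 CPM (16.4 to 35.2) and 23.3 CPM (16.7 to 31.6) in mid-to-tip cells and 9.03 CPM (5.44 to 14.1) and 14.8 CPM (11.8 to 18.2) in villus tip-like cells, so each class lay below the one before it, the intervals of the last pair overlapping in the adip fl/fl-Villi-Cre library. The bottom to tip ratio was 147 (94 to 244) and 89.2 (72.4 to 111), and 0.111% and 0.293% of all genes had one as high. Pycard was found in 99.5% and 100% of villus bottom-like and 3.85% and 5.62% of villus tip-like cells, and in 91.4% and 88.3% against 1.46% and 2.82% when each cell was thinned to 2000 UMIs.

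Nlrp6 and Casp1, the genes of a sensor and of the inflammatory caspase, peaked in the lower villus. Nlrp6 stood at 206 CPM (188 to 225) and 197 CPM (186 to 209) in crypt cells, 442 CPM (425 to 460.3) and 441 CPM (429 to 453) in villus bottom-like cells and 251 CPM (240.4 to 263) and 254 CPM (246 to 263) in mid-villus-like cells. It was at 42.3 CPM (31.4 to 55.7) and 41.5 CPM (32.5 to 52.2) in mid-to-tip and 9.51 CPM (5.81 to 14.7) and 11.4 CPM (8.85 to 14.5) in villus tip-like cells, with a bottom to tip ratio of 46.5 (30 to 76.3) and 38.7 (30.4 to 49.9). An enterocyte cluster led by Fgf15, Dnm1 and Lypd8l that took no zone name (69 and 158 cells) had Nlrp6 at 557 CPM (483 to 639.7) and 497 CPM (446 to 553). Within the villus bottom-like cluster Nlrp6 was highest in the sub-cluster led by Areg, at 595 CPM and 573 CPM. Casp1 stood at 111 CPM (98.1 to 126) and 98.5 CPM (90.4 to 107) in crypt cells, 187 CPM (176 to 199) and 162 CPM (154 to 169) in villus bottom-like cells and 97 CPM (90.2 to 104) and 92.3 CPM (87.4 to 97.3) in mid-villus-like cells. It was at 27 CPM (18.5 to 38.2) and 26.2 CPM (19.2 to 34.9) in mid-to-tip and 8.08 CPM (4.71 to 12.9) and 10.9 CPM (8.41 to 13.9) in villus tip-like cells, with a bottom to tip ratio of 23.1 (14.4 to 39.9) and 14.8 (11.6 to 19.3). Pycard, Casp1, Nlrp6 and Il18 were thus all low in the upper villus.

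**Figure D2:**
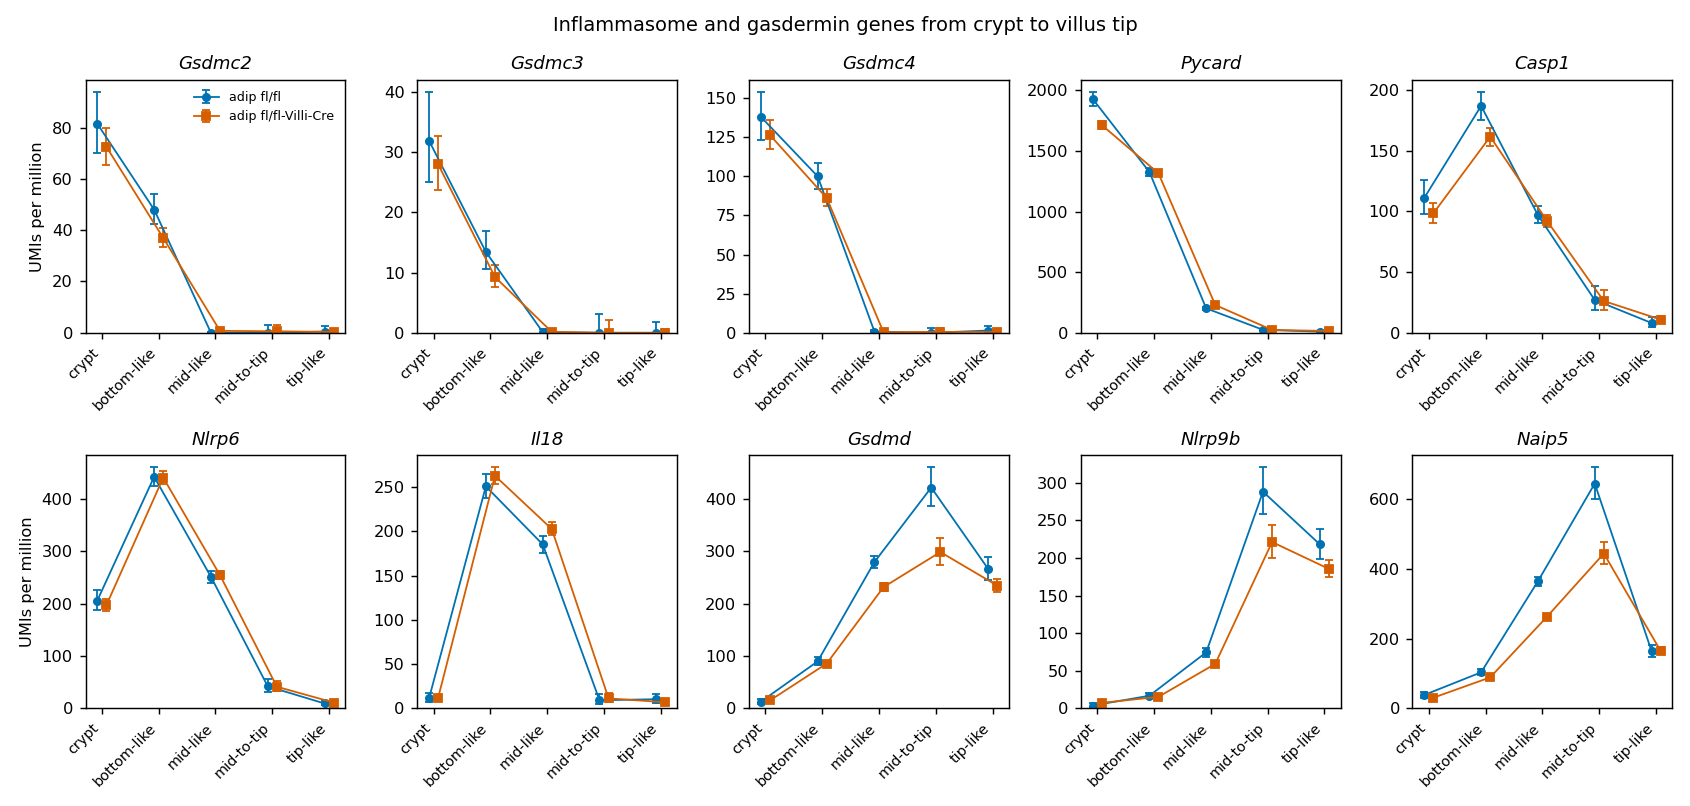
CPM of each of the 10 genes in crypt, villus bottom-like, mid-villus-like, mid-to-tip and villus tip-like cells, blue circles for adip fl/fl and orange squares for adip fl/fl-Villi-Cre, with exact 95% Poisson intervals and a separate linear axis for each gene. The gasdermin C genes and Pycard are highest in the crypt, Casp1, Nlrp6 and Il18 in villus bottom-like cells, and Gsdmd, Nlrp9b and Naip5 in mid-to-tip cells, where the orange points of these genes lie below the blue ones.

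Gsdmd, the gene of the pore protein that caspase-1 cuts, took the opposite course as a share of UMIs. It stood at 12.9 CPM (8.73 to 18.5) and 15.3 CPM (12.2 to 18.9) in crypt cells, 89.8 CPM (82.1 to 98.2) and 85.8 CPM (80.5 to 91.3) in villus bottom-like cells and 279.5 CPM (268 to 291) and 232 CPM (224 to 239.6) in mid-villus-like cells. It was at 422 CPM (386 to 460.4) and 299 CPM (274 to 325) in mid-to-tip and 267 CPM (245 to 289.7) and 235 CPM (223 to 247) in villus tip-like cells. Villus tip-like cells were 2.97 (2.62 to 3.36) and 2.74 (2.52 to 2.97) times as high as villus bottom-like cells, and the mid-villus-like and tip levels did not differ beyond counting error, with ratios of 1.05 (0.955 to 1.15) and 0.987 (0.927 to 1.05). When the enterocytes of each library were split into 5 equal bins by a score of tip and bottom markers, the highest bin was 1.84 (1.65 to 2.06) and 1.75 (1.6 to 1.91) times the lowest, under the 2-fold limit. In that split 7 of the 10 genes were at least 2-fold higher in the lowest bin (50.8% of all genes) and only Nlrp9b in the highest (8.13%). Gsdmd RNA and the RNA of Pycard and Casp1 were thus richest in different parts of the villus. They also occurred together. In villus bottom-like cells with at least 2000 UMIs, at full depth, Gsdmd was found in 171 of 221 and 337 of 444. Of these cells 171 and 337 also had Pycard, which all cells of that set had, and 162 and 309 had Casp1. When thinned to 2000 UMIs, 10 of 35 and 18 of 66 cells with Gsdmd had Casp1, and 53 of 186 and 111 of 378 of those without it. The mid-villus-like class also held all 3 genes, and whether its single cells did was not examined.

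Nlrp9b and Naip5, both sensor genes, were highest in mid-to-tip cells, as was Gsdmd. These peaks lie in the class with the highest mitochondrial share and were not checked under a stricter limit. The class rests on a tie of 5 mid-villus and 5 tip markers, and arose only in the main clustering. At resolution 1.2 a cluster with many of the same leading genes had 4 and 5 such markers and was named villus tip-like. With listed genes kept for clustering, a cluster led by Ubd and Aldh4a1 had 5 and 3 and was named mid-villus-like. Nlrp9b stood at 3.88 CPM (1.77 to 7.37) and 7.45 CPM (5.35 to 10.1) in crypt cells, 16.9 CPM (13.7 to 20.8) and 15.5 CPM (13.3 to 17.9) in villus bottom-like cells and 74.6 CPM (68.6 to 80.9) and 59.3 CPM (55.4 to 63.4) in mid-villus-like cells. It was at 288 CPM (258 to 320.5) and 221 CPM (199.8 to 244) in mid-to-tip and 218 CPM (199 to 239) and 186 CPM (175 to 197) in villus tip-like cells, the latter 12.9 (10.3 to 16.3) and 12 (10.2 to 14.1) times the bottom level, and 1.81% and 1.76% of all genes leaned as far to the tip. Naip5 stood at 38.8 CPM (31.2 to 47.7) and 30.9 CPM (26.4 to 35.9) in crypt cells, 104 CPM (95.3 to 113) and 89.2 CPM (83.8 to 94.8) in villus bottom-like cells and 365 CPM (352 to 378) and 263 CPM (255 to 272) in mid-villus-like cells. It was at 645 CPM (599.9 to 692) and 444 CPM (414 to 477) in mid-to-tip and 165 CPM (148 to 183) and 165 CPM (155 to 176) in villus tip-like cells. The mid-to-tip to tip ratio was 3.91 (3.44 to 4.45) and 2.69 (2.45 to 2.96) for Naip5 and 1.32 (1.14 to 1.52) and 1.19 (1.06 to 1.34) for Nlrp9b, so the 2 sensor genes differed in how the tip compared with the cells before it.

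Across 11 classes in both libraries, 22 points that share libraries and depth, the genes with the most similar pattern were looked up among 11139 genes, as a description (Pearson r). Gsdmc2 and Gsdmc4 were closest to each other (0.954), and Gsdmc3 to the pseudogene Gvin-ps5 (0.912). Gsdmd was closest to Slc34a2, a phosphate transporter gene (0.977), Nlrp6 to Slc26a3, a chloride exchanger gene (0.973), and Naip5 to Cyp27a1, a sterol hydroxylase gene (0.973). Nlrp9b was closest to Med13 (0.954) and then to the mitochondrial ribosomal RNA mt-Rnr2, Pycard to Prdx6 (0.966), Casp1 to Uqcrq (0.967) and Il18 to Aldh1a1, a retinaldehyde dehydrogenase gene (0.964). Among the 10 genes, Nlrp6 was near Casp1 (0.86) and Il18 (0.86), Gsdmd was near Nlrp9b (0.89) and Naip5 (0.88), and Gsdmd and Pycard ran against each other (-0.69).

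Other genes of these pathways were taken from a list of 60. Of the 29 with enough UMIs in villus bottom-like and tip-like cells, 7 were at least 2-fold higher at the bottom in both libraries (52% of all genes). Another 7 were so at the tip (9.39% of all genes), and 15 met neither limit. Their median log2 ratio of bottom to tip was 0.08 and -0.10, where that over all genes tested was 1.29 and 1.25. Among the sensors, Naip6, of the same family as Naip5, followed it, with 118 CPM and 104 CPM in villus bottom-like, 455 CPM and 301 CPM in mid-to-tip and 103 CPM and 91.2 CPM in villus tip-like cells. Nlrc4, the gene of the platform that NAIP proteins activate, met neither limit, with 45.5 CPM and 44.3 CPM at the bottom and 58 CPM and 63.4 CPM at the tip. Casp4, a caspase gene of the pathway that senses bacterial lipopolysaccharide inside cells, was at 30.6 CPM and 33.9 CPM against 38 CPM and 33.5 CPM. Gsdme, another gasdermin gene, was higher at the tip, at 42.8 CPM and 61.9 CPM against 15.7 CPM and 22 CPM at the bottom. Il18bp, whose product binds IL-18, was at 6.63 CPM and 6.21 CPM at the bottom and 15.7 CPM and 13.9 CPM at the tip, and Il4ra, a receptor gene for type 2 cytokines, at 25.8 CPM and 20.3 CPM and 67 CPM and 72.4 CPM, away from the gasdermin C genes. Nlrp3 had 1 and 1 UMIs in enterocytes and stood at 60.8 CPM and 27.2 CPM in myeloid-like cells, where Il1b was at 884 CPM and 760.2 CPM.

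Set against immune cells, 9 of the 10 genes were at least 2-fold higher in enterocytes in both libraries, as were 21.9% of 12874 genes, and 0 were at least 2-fold higher in immune cells (35.2%). Pycard was the exception, at 534 CPM (523 to 545) and 549 CPM (541 to 557) in enterocytes and 259 CPM (243 to 277) and 327 CPM (308 to 346) in immune cells. These enterocyte levels are sums, in which villus bottom-like cells gave 5431309 of 16563333 and 11435631 of 33724271 UMIs. They do not hold for each zone. In villus tip-like cells Pycard lay below its level in immune cells, and Casp1 below its level of 26 CPM and 27.5 CPM there. Pycard was also lower in mid-villus-like and mid-to-tip cells than in immune cells. For Nlrp6 and Il18 the intervals of villus tip-like and immune cells overlapped in both libraries. Gsdmd, Nlrp9b and Naip5 lay above their immune levels in villus tip-like cells. Transcripts of abundant enterocyte genes were found in immune barcodes. Their level relative to that in enterocytes gave an estimated share of enterocyte RNA of 6.81% and 17.6% in T cell-like cells (363 and 438 cells). This estimate assumes that a class does not express these genes itself and that the RNA has the mix of all enterocytes. Neither was checked. Pycard in T cell-like cells stood at 221 CPM (199.7 to 244) and 234 CPM (213 to 257), 6.09 and 2.42 times what that share would bring. Gsdmd at 45.9 CPM and 56.3 CPM was 2.98 and 1.72 times, and Casp1 at 25.8 CPM and 24.3 CPM was 3.44 and 1.41 times, that level. Il18 at 5.73 CPM and 16.5 CPM and Nlrp6 at 11.5 CPM and 20.1 CPM were 0.489 and 0.526 times and 0.627 and 0.434 times that level, so no level above it was seen. In myeloid-like cells (49 and 20) Gsdmd stood at 136 CPM (90.9 to 195) and 90.5 CPM (43.4 to 166). Gsdmc2 had 2 and 0 UMIs, Gsdmc3 1 and 1 and Gsdmc4 1 and 1 over all immune cells.

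**Figure D3:**
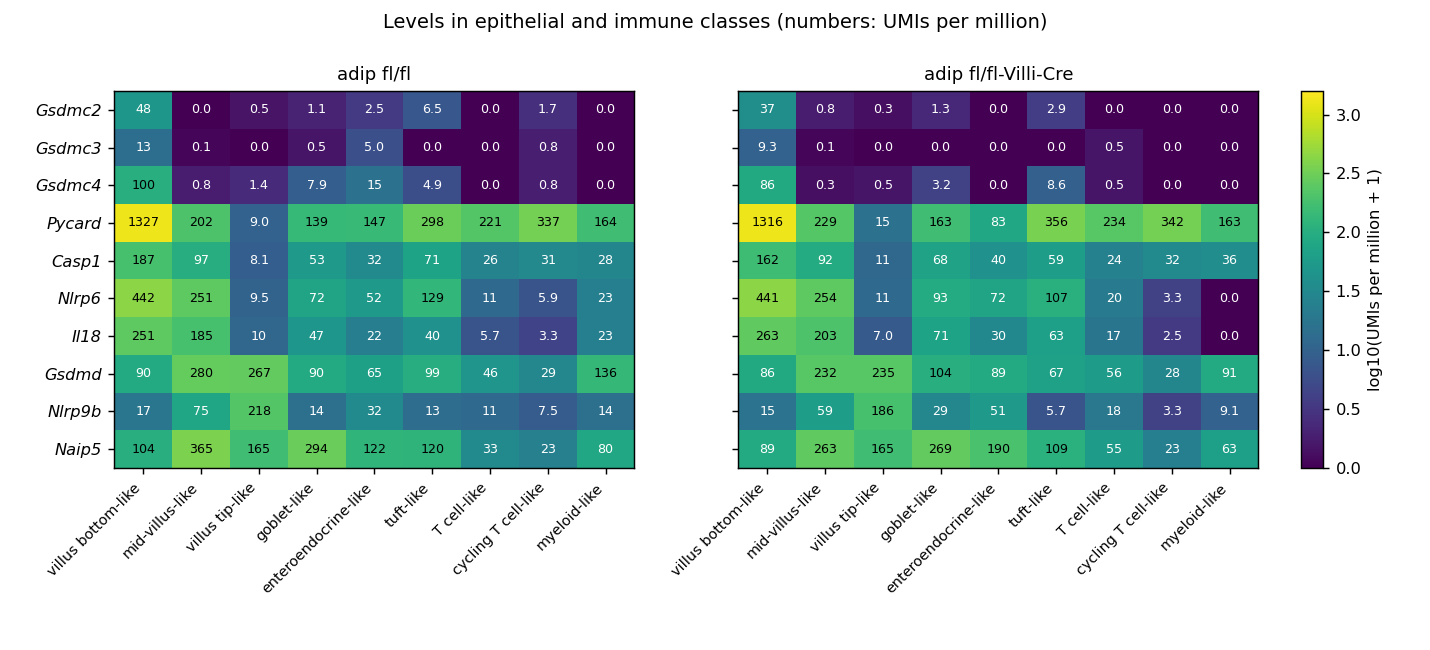
Each cell gives the CPM of 1 gene (row) in 1 class (column), coloured by log10 of the value plus 1, with adip fl/fl on the left and adip fl/fl-Villi-Cre on the right. Pycard is read in T cell-like cells (221 CPM and 234 CPM), Naip5 in goblet-like cells (294 CPM and 269 CPM), and the gasdermin C genes are highest in villus bottom-like cells among the classes drawn (the crypt is not).

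Goblet-like cells (225 and 410), whose cluster also carried 7 Paneth cell markers, held Naip5 at 294 CPM (270.1 to 319.5) and 269 CPM (253 to 287). This was 4.47 and 3.8 times the level that the enterocyte RNA estimated for these barcodes (24.1% and 36.1%) would bring, and Naip6 was at 432 CPM and 326 CPM. Nlrp6, studied for its part in goblet cells, stood at 72.3 CPM (60.7 to 85.5) and 93 CPM (83.5 to 103), 1.12 and 0.978 times that level over the class. The source of this RNA was not tested. Inside the goblet-like cluster Nlrp6 was highest in a sub-cluster led by Ccl6, Agr2 and Tpsg1 (20 and 67 cells), at 265 CPM and 209 CPM, with Il18 at 178 CPM and 160.1 CPM and Pycard at 408 CPM and 335 CPM. In the sub-cluster led by Ido1 and Nupr1 (102 and 144 cells) Nlrp6 was at 13.9 CPM and 9.92 CPM and Pycard at 34.7 CPM and 26 CPM, whereas Naip5 was at 335 CPM and 289 CPM. The median depth was 19113 and 18294 UMIs in the Ccl6 and 4905 and 5432 in the Ido1 sub-cluster. Their median mitochondrial share was 8.08% and 8.34% against 4.4% and 4.38%. The share of enterocyte RNA was not estimated for single sub-clusters, and mixed barcodes were not tested for. In tuft-like cells (76 and 62) Pycard stood at 298 CPM (256 to 344) and 356 CPM (313 to 403), 1.86 and 1.74 times the level from enterocyte RNA.

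Between the libraries, 0 of the 10 genes were past 1.5-fold over all enterocytes in either direction, where 5.33% of 13305 genes were past it upward and 5.05% downward in adip fl/fl-Villi-Cre. The ratio of adip fl/fl-Villi-Cre to adip fl/fl was 0.717 (0.69 to 0.745) for Naip5, 0.824 (0.792 to 0.859) for Gsdmd and 0.844 (0.791 to 0.90) for Nlrp9b, the genes highest in mid-to-tip cells. It was 0.819 (0.701 to 0.958) for Gsdmc2, 0.717 (0.528 to 0.977) for Gsdmc3, 0.884 (0.795 to 0.982) for Gsdmc4 and 0.889 (0.839 to 0.941) for Casp1. It was 0.982 (0.947 to 1.02) for Nlrp6, 1.03 (1.0 to 1.06) for Pycard and 1.04 (0.992 to 1.09) for Il18. Among all genes, 7.25% had a ratio as low as Naip5, 16.1% as low as Gsdmd and 18.6% as low as Nlrp9b. How far pools of 1 genotype differ is not known here. The libraries also differed in the median mitochondrial share over all barcodes, 31.5% and 25.5%, and in the part of barcodes kept, 31.3% and 46.9%. The part of this in the ratios was not tested.

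By clusters, the Naip5 ratio lay furthest below 1 in the mid-villus-like and mid-to-tip classes of the axis. Its ratio was 0.86 (0.776 to 0.955) in villus bottom-like, 0.722 (0.687 to 0.758) in mid-villus-like, 0.689 (0.623 to 0.762) in mid-to-tip and 1.0 (0.885 to 1.13) in villus tip-like cells. The clusters that make up the mid-villus-like class gave 0.737, 0.768, 0.815 and 0.824, each nearer 1 than the class as a whole. In the 5 bins by marker score the ratios ran 0.841, 0.796, 0.643, 0.592 and 0.665 from the lowest bin to the highest. By score the difference thus lay in the upper bins, and the tip pair was equal by clusters and unequal by score. Naip6 gave 0.69 (0.661 to 0.721) over all enterocytes, Naip1 0.799 (0.744 to 0.859), Naip2 0.857 (0.795 to 0.924) and Nlrc4 0.958 (0.881 to 1.04). Gsdmd gave 0.829 (0.785 to 0.875) in mid-villus-like, 0.708 (0.625 to 0.802) in mid-to-tip and 0.88 (0.797 to 0.972) in villus tip-like cells. Nlrp9b gave 0.796 (0.715 to 0.885), 0.768 (0.662 to 0.891) and 0.85 (0.762 to 0.95) in the same classes. In villus bottom-like, mid-villus-like and mid-to-tip cells 0 of 10, 0 of 7 and 0 of 7 genes with enough UMIs were past 1.5-fold, where 5.34%, 4.93% and 8.54% of all genes were past it upward and 4.75%, 5.13% and 9.11% downward. In villus tip-like cells 1 of 7, Pycard, was past it, upward at 1.63 (0.987 to 2.84), where 11.2% of all genes were past it upward and 6.14% downward.

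Of the gasdermin C genes in villus bottom-like cells, Gsdmc2 had a ratio of 0.77 (0.658 to 0.902), Gsdmc3 of 0.69 (0.507 to 0.942) and Gsdmc4 of 0.861 (0.774 to 0.958). In crypt cells the ratios were 0.89 (0.747 to 1.06), 0.877 (0.661 to 1.17) and 0.916 (0.801 to 1.05). A single cell held 17.2% of the Gsdmc2 UMIs and 31.5% of the Gsdmc3 UMIs of villus bottom-like cells in the adip fl/fl library. In goblet-like cells 2 of 8 genes with enough UMIs were past 1.5-fold upward (13.9% of all genes), Nlrp9b at 2.06 (1.34 to 3.26) and Il18 at 1.52 (1.19 to 1.96), and 1, Gsdmc4 at 0.407 (0.174 to 0.932), was past it downward (5.89%). The estimated share of enterocyte RNA was 24.1% and 36.1% in these barcodes. Nlrp9b stood at 0.665 and 1.08 times, Il18 at 1.14 and 1.11 times and Gsdmc4 at 0.988 and 0.304 times the level which that share would bring. The part of enterocyte RNA in the values of these 3 genes was not tested. Without the sub-clusters led by Ccl6 and by Ern2 the ratio was 1.48 (0.779 to 2.94) for Nlrp9b and 1.94 (0.917 to 4.49) for Il18.

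**Figure D4:**
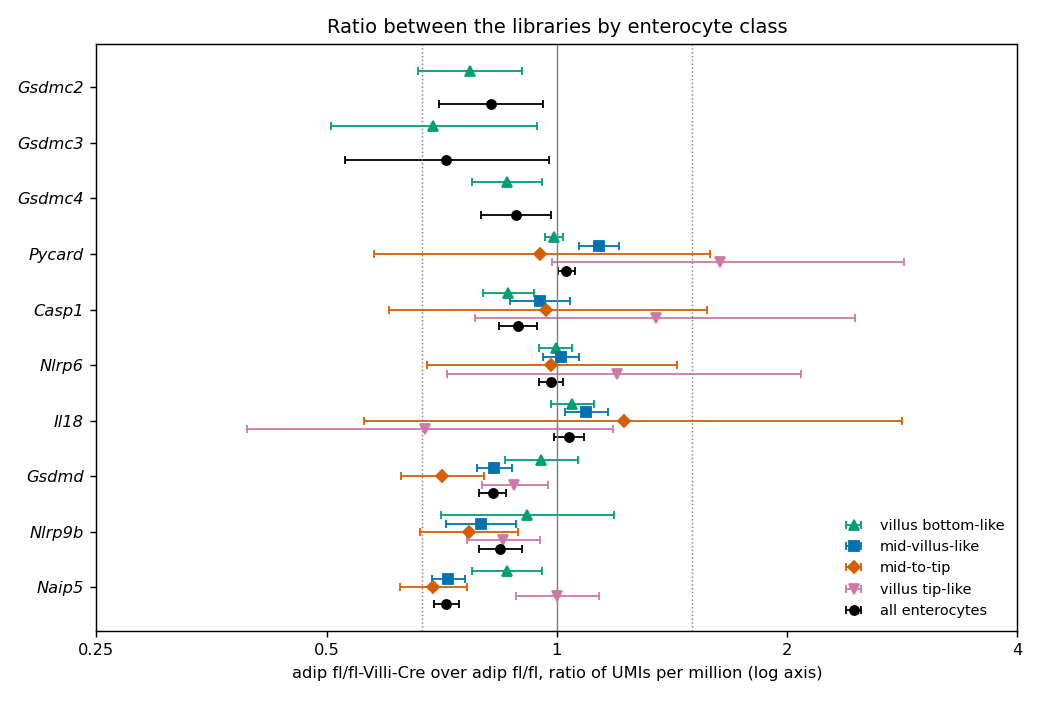
Points give the ratio of CPM in adip fl/fl-Villi-Cre to adip fl/fl (log axis) for each gene in the enterocyte classes and in all enterocytes (black), with exact 95% intervals for counting error, and dotted lines mark 1.5-fold. Classes in which a gene had fewer than 20 UMIs over both libraries, or 0 in either, are left out. The black points lie between 0.717 and 1.04, with Naip5, Gsdmd and Nlrp9b left of 1 in mid-villus-like and mid-to-tip cells.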

How the data were processed

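Small intestinal cells of both genotypes were captured in droplets and sequenced from the 3′ end. Base calls went through bcl2fastq 5.0.1, per the submitters' notes. The authors then mapped to mm10 and counted UMIs by Cell Ranger (7.1.0 per the file headers), and deposited raw counts per gene and barcode, not normalized. Whether intronic reads were counted is not given in the sources used here.

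A barcode was kept if it had over 500 genes and a mitochondrial share below 25%, which left fewer cells than the study retained. It left 31.3% of 9791 adip fl/fl and 46.9% of 11838 adip fl/fl-Villi-Cre barcodes. The median mitochondrial share over all barcodes was 31.5% and 25.5%. The share counted 37 mitochondrial genes. With the 13 coding genes alone 7637 and 9729 barcodes passed. Cells were clustered with Seurat 5.3.0 (R 4.3.3; 2000 variable genes, 20 principal components, resolution 0.8, sub-clusters at 0.4) after 70 listed genes were taken out of the variable genes. Clusters were named from marker lists. No cells were removed as doublets. Scrublet (scanpy 1.11.5) called 3 and 2 cells, and whether it missed doublets was not tested. An alternative left out the 8% of barcodes with the highest doublet scores. UMIs were summed per class and scaled to 1000000. Intervals are exact Poisson intervals for levels and exact conditional intervals for ratios, from scipy 1.17.1, and no p-value was computed. Ratios and intervals were run on simulated Poisson counts, the same model that the intervals assume. That run cannot show how the intervals behave where UMIs are uneven between cells. Counts of genes past a limit used genes with at least 20 UMIs, and the limits were 2-fold between zones and 1.5-fold between libraries. Single ratios were also given below 20 UMIs. Gene positions came from GENCODE (GRCm38). All 10 genes are named in the text. Other listed genes were named as examples after their values were seen. Values of some listed genes are not reported here. The genes, lists and limits were chosen with earlier results of these data known.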

Additional observations from a re-analysis of the deposited data

Results flagged for a closer look

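Several genes lay higher in the adip fl/fl-Villi-Cre library in some classes and lower in others. Each value below is the ratio of adip fl/fl-Villi-Cre to adip fl/fl in a class where the interval for counting error lay on 1 side of 1. The difference between classes was not tested, and each genotype has 1 library.

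Naip5 was at 0.689 in mid-to-tip cells, 0.722 in mid-villus-like cells and 0.86 in villus bottom-like cells, against 1.56 in enteroendocrine-like and 1.69 in T cell-like cells. Nlrp9b was at 0.796 in mid-villus-like, 0.768 in mid-to-tip and 0.85 in villus tip-like cells, against 2.06 in goblet-like cells. Casp1 was at 0.864 in villus bottom-like and 1.28 in goblet-like cells. Pycard was at 0.888 in crypt and 0.567 in enteroendocrine-like cells, against 1.14 in mid-villus-like and 1.17 in goblet-like cells. Gsdmc2 was at 0.77 in villus bottom-like cells and at least 1.97 in mid-villus-like cells, where the adip fl/fl library had 0 UMIs and is set to the floor of 3. The share of enterocyte RNA, estimated as above, was 6.81% and 17.6% in T cell-like, 24.1% and 36.1% in goblet-like and 12.6% and 32.8% in enteroendocrine-like cells. In goblet-like cells Nlrp9b stood at 0.665 and 1.08 times and Pycard at 1.09 and 0.822 times the level which that share would bring, while Casp1 stood at 2.01 and 1.93 times. Naip5 stood at 3.54 and 2.95 times in enteroendocrine-like and 1.75 and 1.6 times in T cell-like cells, and Pycard at 2.18 and 0.462 times in enteroendocrine-like cells. The part of enterocyte RNA in the ratios of T cell-like, goblet-like and enteroendocrine-like cells was not tested.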

How the results depend on the processing

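No paired analysis was possible because each genotype has 1 library, and for the same reason no replicate could be left out. With the mitochondrial share held under 10%, which left 4 and 17 of 494 and 1494 villus tip-like cells, 4 in place of 7 genes were at least 2-fold higher at the bottom in both libraries. A gene with 0 UMIs in these tip cells was set to the floor of 3 UMIs. Ratios above 1 in this setting can thus be lower bounds, and the lower count does not show that a difference was lost. The bottom to tip ratios were then 1.03 and 3.8 for Gsdmc4, 2.48 and 11.6 for Il18, 4.12 and 18.6 for Nlrp6, 40.7 and 58.5 for Pycard, 5.65 and 7.07 for Casp1 and 0.429 and 0.163 for Nlrp9b, against 70.1 and 171, 24 and 37.3, 46.5 and 38.7, 147 and 89.2, 23.1 and 14.8 and 0.0776 and 0.0834 as reported. With 30 principal components those of Nlrp6 and Pycard were 12 and 14.9, and 70.3 and 67.2. By 5 bins of the marker score, 1 in place of 2 genes was at least 2-fold higher at the tip. In 5 alternatives (both other resolutions, 30 principal components, listed genes kept for clustering, and the share from 13 mitochondrial coding genes) 3 were, Naip5 being the third, with a ratio of 0.296 and 0.376 with 30 principal components against 0.628 and 0.54. No cluster took the name mid-to-tip in these 5 alternatives. The count of genes past 1.5-fold downward in adip fl/fl-Villi-Cre enterocytes was 1 in place of 0 with the mitochondrial share under 10% (Gsdmc3, 0.655), with a mean over cells (Naip5, 0.657) and with cells thinned to 2000 UMIs (Naip5, 0.663). The count upward was 0 in all 14 alternatives. Of 275 alternative values of single zone ratios 73 moved by more than counting error and of 140 alternative library ratios 20 did. Of the zone ratios past 2-fold, 0 changed direction. No library ratio over all enterocytes was past 1.5-fold as reported, so a change of direction was not counted for these. Naip5 ranged from 0.657 to 0.836 over the 14 alternatives. The library ratio of Gsdmc3, Gsdmc4, Nlrp9b, Nlrp6, Pycard and Il18 crossed 1 in at least 1 alternative, with a highest value of 1.11 for Gsdmc3, 1.03 for Gsdmc4, 1.04 for Nlrp9b and 1.06 for Nlrp6 and a lowest of 0.976 for Pycard and 0.97 for Il18. Gsdmc2 and Gsdmc3 gave no zone ratio in one or both libraries with the mitochondrial share under 10%, nor Gsdmc3 as a mean over cells. Equal weights for the 4 enterocyte classes were chosen after seeing the data. Where values moved, the cause was not tested.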
